A study of Mus musculus with 6 samples.

Results

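The creatine kinase and adenylate kinase shuttle of the heart was followed through 9 genes: Ckm, Ckmt2 and Ckb (creatine kinases), Slc6a8 (the creatine transporter), Ak1, Ak3 and Ak4 (adenylate kinases), Ampd3 (an AMP deaminase) and Mb (myoglobin). Members were the rows of the deposited gene table that carry these names, 9 of 14956 listed genes. Levels are given in FPKM, which divides a gene's fragments by its transcript length and by all mapped fragments of the library. All 9 members averaged 1 FPKM or more and so were among the 11096 genes tested.

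The data are poly(A) RNA sequencing of 6 mouse hearts, 1 heart per mouse. The 3 control hearts came from Otub1 +/+ mice (WT), and the other 3 from Otub1 +/- mice (Het) with 1 knocked-out copy of Otub1. The sources used here do not say how the copy was disrupted, or in which cells. Every mouse of both genotypes had been injected with doxorubicin (DOX), 6 times in 2 weeks, so the values compare genotypes under treatment and include no untreated heart. Doxorubicin is an anthracycline chemotherapy drug that injures the heart, and OTUB1 is an enzyme that removes ubiquitin from proteins. The design asks how the treated heart differs when 1 Otub1 copy is missing. The sources used here give no strain, sex or age.

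Heart muscle burns ATP within seconds of making it, and the creatine kinase shuttle carries the energy between the sites of production and use. Mitochondrial creatine kinase passes the phosphate of newly made ATP to creatine, phosphocreatine diffuses to the myofibrils and pumps, and cytosolic creatine kinase there restores ATP from ADP. Adenylate kinases recover energy from a second source by turning ADP into ATP and AMP. AMP deaminase removes AMP as IMP, and myoglobin stores oxygen and eases its passage to mitochondria.

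The genotype labels were checked on Otub1 (ENSMUSG00000024767, chromosome 19, 7198202 to 7206316, minus strand, GRCm38), which averaged 14.8 ± 0.606 FPKM in WT hearts and 5.99 ± 1.00 FPKM in Het hearts (mean ± SD of 3), with no overlap between the groups. The limma fit gave it a log2 fold change of -1.19 (SE 0.187; adjusted p = 0.376, or 0.0131 without Het 1). The authors' deposited table gave it -1.31, with an adjusted p of 1.62e-17 from a test that the sources used here do not specify. Het 1 stood apart: its median gene had a log2 difference of -0.46 from the WT mean (log2(FPKM + 1) scale), against -0.04 to 0.02 in the other 5 hearts, and mitochondrial genes took 65.0% of its summed FPKM, against 51.5 to 56.1%. The results below are therefore also given without Het 1, and relative to the median gene of each heart. Cardiomyocyte markers were high throughout, with all 12 listed and a summed level of 20510 to 23220 FPKM in WT and of 9164, 19160 and 18760 FPKM in Het 1, 2 and 3. Hepatocyte markers (7 of 8 listed) summed to 119 to 170 FPKM in WT and to 1.85, 41.8 and 0.924 FPKM in the 3 Het hearts. Lung epithelial markers (6 of 6 listed) summed to at most 0.129 FPKM except in Het 3, where they reached 794 FPKM. Erythroid markers (8 of 9 listed) summed to 1007 to 1396 FPKM in WT and to 5710, 2406 and 681 FPKM in Het. Fast skeletal muscle, which also makes much Ckm and Ak1, left little trace: 3 of its 10 markers were listed, with a summed level of at most 2.52 FPKM in any heart. The part of these cell types in the results below was not tested. In bulk hearts, fewer cells of a type and less RNA per cell cannot be told apart.

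Ckm and Ckmt2 were low in Het 1, where Ckb was high. Because these genes behaved differently in the same hearts, the promoters of the 3 creatine kinases are shown. Each is the 250 bases before the RefSeq start on GRCm38.p6, 5′ to 3′ on the gene's strand, with matches in capitals. Ckm lies at chr7:19410844-19411093 on the plus strand, Ckmt2 at chr13:91876886-91877135 on the minus strand and Ckb at chr12:111672339-111672588 on the minus strand.
Ckm: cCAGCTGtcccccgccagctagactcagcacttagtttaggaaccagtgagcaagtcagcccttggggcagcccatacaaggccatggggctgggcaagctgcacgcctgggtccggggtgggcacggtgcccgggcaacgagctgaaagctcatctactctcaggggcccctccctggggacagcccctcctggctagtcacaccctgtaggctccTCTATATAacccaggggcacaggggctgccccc
Ckmt2: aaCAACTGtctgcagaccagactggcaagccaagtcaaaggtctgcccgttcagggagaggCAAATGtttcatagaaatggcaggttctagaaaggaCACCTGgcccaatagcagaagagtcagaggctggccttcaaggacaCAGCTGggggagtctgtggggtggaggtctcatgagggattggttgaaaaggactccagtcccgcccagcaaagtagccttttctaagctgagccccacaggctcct
Ckb: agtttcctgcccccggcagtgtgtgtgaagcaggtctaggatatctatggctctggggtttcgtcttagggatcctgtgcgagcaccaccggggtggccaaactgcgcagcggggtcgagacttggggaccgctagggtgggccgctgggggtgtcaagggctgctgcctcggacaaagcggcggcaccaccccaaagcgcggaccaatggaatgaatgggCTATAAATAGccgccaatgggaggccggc

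Of the 9 members, 8 were matched in the RefSeq promoter table, 4 of them with 1 start only. Both strands were searched for the E-box CANNTG, the site of muscle basic helix-loop-helix factors, for the core of the MEF2 site, a motif of muscle genes, for the estrogen-related receptor core AAGGTCA, and for the TATA letters TATANA, the last added after the sequences had been seen. The Ckm window holds 1 E-box, CAGCTG, 249 to 244 bases before the start, and overlapping TATA letters 33 to 26 bases before it. The Ckmt2 window holds 4 E-boxes and no TATA letters. The Ckb window holds no E-box. It has the MEF2 core CTATAAATAG 29 to 20 bases before the start, which overlaps the TATA letters TATAAA at 28 to 23 bases. Of 32851 mouse promoters of the same length, 66.2% hold an E-box, 3.20% a MEF2 core, 4.08% the estrogen-related receptor core and 22.6% the TATA letters, and a match describes letters only.

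In WT hearts the members' mean levels spanned 6.60 to 5160 FPKM, a unit scaled by transcript length. Mb, the oxygen-binding globin of muscle, was highest at 5160 ± 141 FPKM (SD, n = 3) and ranked 21st of all listed genes. Ckmt2, the mitochondrial creatine kinase of striated muscle, followed at 925 ± 29.4 FPKM, 5.58-fold below Mb, and Ckm, its cytosolic partner, at 587 ± 14.3 FPKM, 1.57-fold below Ckmt2. Ak1, the cytosolic adenylate kinase, stood at 151 ± 17.3 FPKM. The ranges of these 4 genes over the WT hearts did not overlap. Ak3 at 33.3 ± 1.504 FPKM and Slc6a8 at 29.6 ± 2.34 FPKM differed by 1.13-fold, and their WT ranges of 31.6 to 34.3 and 26.9 to 31.2 FPKM came close without overlapping. Ckb followed at 10.7 ± 1.14 FPKM. Ak4 at 6.89 ± 1.5 and Ampd3 at 6.60 ± 0.369 FPKM came last, with WT ranges that overlapped, so their order is within the spread between hearts. In the GENCODE M21 annotation, exons of Ckm, Ckmt2, Ak3, Ampd3 and Mb overlap genes on the opposite strand (by 451 of 2913 exon bases for Ckm and 412 of 1492 for Mb), and Ckb has 2 named pseudogene copies. The sources used here do not say whether the authors counted by strand, so reads of these genes may include such overlaps.

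**Figure D1:**
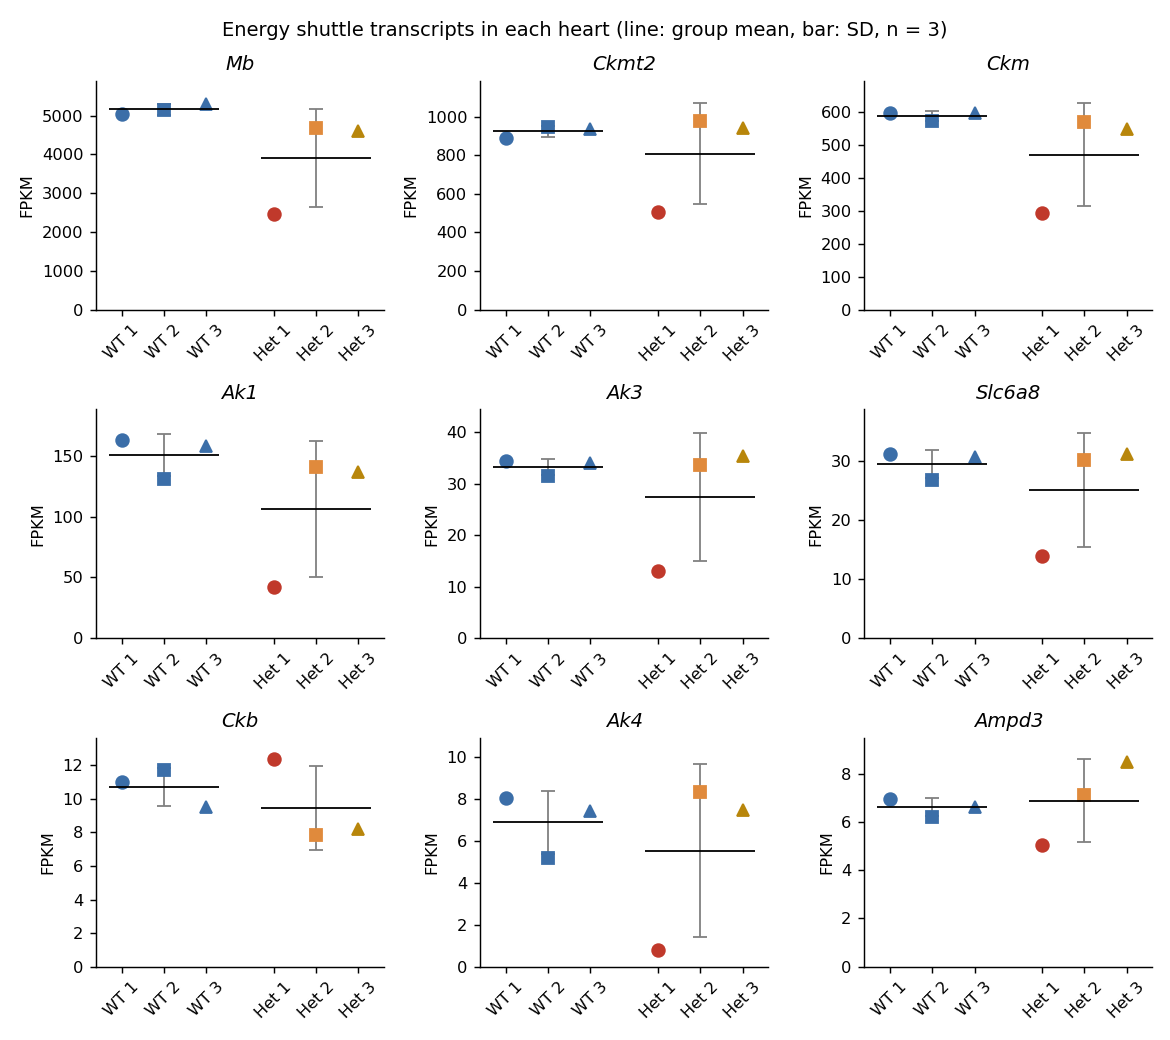
FPKM of the 9 shuttle genes (y axis, linear and from 0) in each of the 3 WT and 3 Het hearts (x axis), with the group mean as a line and the SD as a bar (n = 3). Het 1, in red, is the lowest heart in every panel except that of Ckb, where it is the highest.

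No member differed between genotypes past the threshold. Of the 9 members, 0 had an adjusted p under 0.05 in limma (Benjamini-Hochberg over all tested genes), where 2 of 11096 genes did (0.018%), and 0 of 9 had an unadjusted p under 0.05, where 3.08% of all genes did so with a lower and 0.802% with a higher level in Het. Members' adjusted p ran from 0.753 to 0.956, and over 15 alternative settings from 0.241 to 0.992. In the authors' deposited table, likewise, 0 of 9 members had an adjusted p under 0.05, where 152 of 14956 genes did (1.02%), and the members' adjusted p there ran from 0.803 for Ampd3 to 0.980 for Ckmt2. The log2 fold change was negative for 8 of 9 members with a median of -0.38, and negative for 8498 of all 11096 tested genes with a median of -0.18. Without Het 1, 0 of 9 members had an adjusted p under 0.05 (0.0718% of all genes), and the log2 fold change was negative for 4 of 9, with a median of 0.05 against -0.04 over all genes. Under median-ratio scaling, which moved the median of all genes to -0.02, 7 of 9 were negative.

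Het 1 stood apart for most members. It was the lowest of the 6 hearts for 8 of 9 members, and for 65.0% of all tested genes. Relative to the median gene of the same heart, the members' median log2 difference from the WT mean stood at -0.57 in Het 1, against 0.05 and 0.07 in Het 2 and Het 3 and -0.06 to 0.03 in the WT hearts. Cardiomyocyte markers had a median of -0.64 in Het 1, -0.05 in Het 2 and -0.16 in Het 3, but were split in Het 1. There Tnni3, Ttn, Tnnc1 and Myl2 stood above the median gene (0.35, 0.22, 0.17 and 0.17). The others stood below it, down to -2.86 for Atp2a2. Het 1 was the lowest heart for 9 of 12 of these markers. The part of cardiomyocyte content in the members' values was not tested.

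**Figure D2:**
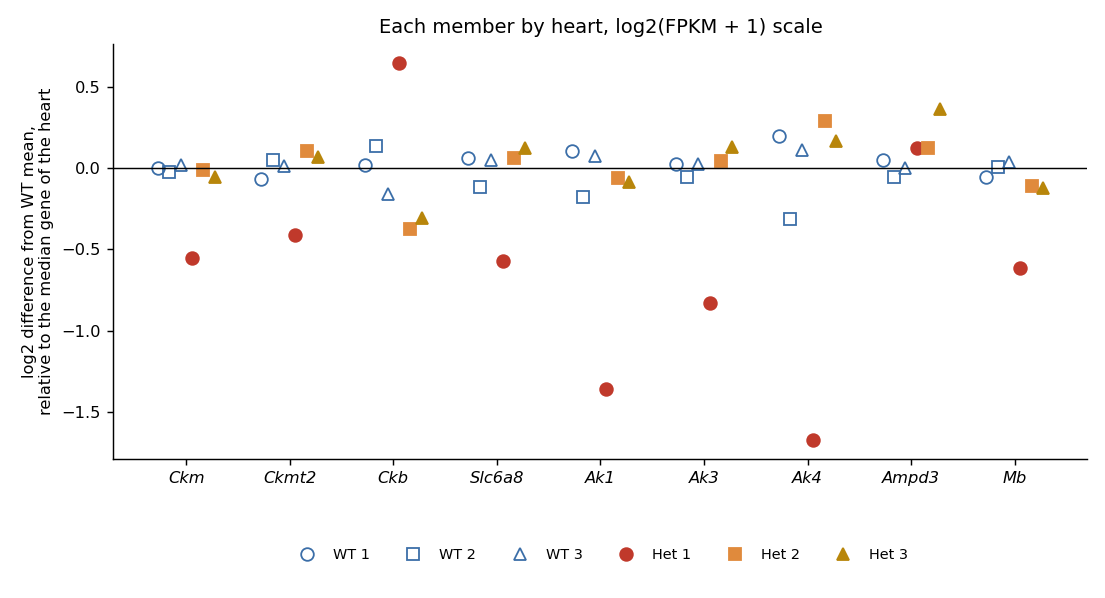
Log2 difference of each member from its WT mean on the log2(FPKM + 1) scale, after subtracting the median difference of all tested genes in that heart (y axis), for each gene (x axis) and heart (symbols). Het 1 lies below 0 for 7 members, furthest for Ak4 (-1.67) and Ak1 (-1.36), and above 0 for Ckb (0.65) and Ampd3 (0.13), while Het 2 and Het 3 lie between -0.38 (Ckb) and 0.36 (Ampd3).

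Ckmt2 (ENSMUSG00000021622, chromosome 13, 91853387 to 91876885, minus strand), the sarcomeric mitochondrial creatine kinase that makes phosphocreatine beside the adenine nucleotide carrier, had 891, 947 and 935 FPKM in WT 1, 2 and 3 and 506, 976 and 940 FPKM in Het 1, 2 and 3. Only Het 1 was low, at 54.7% of the WT mean, while Het 2 and Het 3 lay at 105.5 and 101.7% of it. This gave a log2 fold change of -0.26 (SE 0.320, 95% interval -1.02 to 0.51; limma adjusted p = 0.768), or 0.05 (SE 0.0812) without Het 1.

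Ckm (ENSMUSG00000030399, chromosome 7, 19404776 to 19422841, plus strand), the muscle creatine kinase that restores ATP at myofibrils and calcium pumps, had 595.3, 570.7 and 595.6 FPKM in the WT hearts and 291.7, 569.9 and 548.3 FPKM in the Het hearts. The groups did not overlap, but Het 2 lay less than 1 FPKM below WT 2. Ckm had a log2 fold change of -0.38 (SE 0.328, 95% interval -1.17 to 0.40; limma adjusted p = 0.753). Without Het 1 it was -0.07 (SE 0.0818), with Het 2 and Het 3 at 97.1 and 93.4% of the WT mean.

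Ckb (ENSMUSG00000001270, chromosome 12, 111669361 to 111672338, minus strand) encodes the brain-type subunit, which pairs with the muscle subunit in the CK-MB form used as a blood marker of heart injury and is also made by smooth muscle. It had 10.98, 11.7 and 9.50 FPKM in WT and 12.3, 7.83 and 8.20 FPKM in Het. Ckb was the 1 member that was highest in Het 1 (115% of the WT mean), and in Het 2 and Het 3 it was below every WT heart (73.0 and 76.4%). Over all hearts it had a log2 fold change of -0.19 (SE 0.225, 95% interval -0.72 to 0.35; limma adjusted p = 0.763), and its sign turned under median-ratio scaling (0.02). Without Het 1 it was -0.38 (SE 0.108; limma unadjusted p = 0.0112, adjusted 0.291). That was 1 of 9 members with an unadjusted p under 0.05, where 9.39% of all genes had one with a lower and 2.96% with a higher level in Het.

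Smooth muscle markers were mixed. All 7 were listed, and they summed to 127, 133 and 124 FPKM in WT and to 165, 89.9 and 111 FPKM in Het, so by their sum, as for Ckb, Het 1 was above every WT heart and Het 2 and Het 3 below. Singly, 4 of 7 were highest in Het 1 (Acta2, Myh11, Tagln and Cnn1), while Smtn and Myocd were lowest there. Myh11, the smooth muscle myosin heavy chain, stood at 432% of the WT mean in Het 1 and Acta2, smooth muscle actin, at 143.5%, against 54.2% for Smtn and 22.4% for Myocd. The part of smooth muscle in the Ckb values was not tested.

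Slc6a8 (ENSMUSG00000019558, chromosome X, 73673150 to 73682502, plus strand) carries creatine into the cell, on which the heart depends since it makes little creatine itself. It had 31.2, 26.9 and 30.7 FPKM in WT and 14.0, 30.2 and 31.3 FPKM in Het. Het 1 was at 47.4% of the WT mean and Het 2 and Het 3 were at 102.2 and 105.9%, so the groups overlapped. Its log2 fold change of -0.30 (SE 0.337, 95% interval -1.11 to 0.51; limma adjusted p = 0.758) became 0.06 (SE 0.101) without Het 1.

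Ak1 (ENSMUSG00000026817, chromosome 2, 32621758 to 32635058, plus strand), the main cytosolic adenylate kinase of muscle, had 163, 131 and 158 FPKM in WT and 42.0, 141 and 137 FPKM in Het. Het 1 was at 27.9% of the WT mean, while Het 2 and Het 3 (93.4 and 90.9%) were inside the WT range. A log2 fold change of -0.68 (SE 0.496, 95% interval -1.87 to 0.51; limma adjusted p = 0.753) was the most negative of the 9 and became -0.11 (SE 0.118) without Het 1.

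Ak3 (ENSMUSG00000024782, chromosome 19, 29020833 to 29047961, minus strand), the matrix enzyme that phosphorylates AMP from GTP, had 34.3, 31.6 and 34.0 FPKM in WT and 13.1, 33.7 and 35.4 FPKM in Het. Ak4 (ENSMUSG00000028527, chromosome 4, 101419277 to 101466995, plus strand), a matrix member of the family with weak catalytic activity, had 8.04, 5.19 and 7.43 FPKM in WT and 0.786, 8.32 and 7.49 FPKM in Het. For both genes Het 1 was far below all other hearts, at 39.4% (Ak3) and 11.4% (Ak4) of the WT mean, and Het 2 and Het 3 lay above the WT mean at 101.1 to 120.9%. The log2 fold change of Ak3 was -0.39 (SE 0.393, 95% interval -1.33 to 0.55; limma adjusted p = 0.753). That of Ak4 was -0.58 (SE 0.632, 95% interval -2.10 to 0.94; limma adjusted p = 0.757). Without Het 1 they were 0.05 and 0.19.

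Ampd3 (ENSMUSG00000005686, chromosome 7, 110768206 to 110812405, plus strand) encodes the AMP deaminase isoform first described in red cells. It had 6.96, 6.22 and 6.63 FPKM in WT and 5.05, 7.10 and 8.47 FPKM in Het. Het 1 was below and Het 2 and Het 3 were above every WT heart. With all hearts the log2 fold change stood at 0.03 (SE 0.208, 95% interval -0.47 to 0.52; limma adjusted p = 0.956). Without Het 1 it was 0.21 (SE 0.105; limma unadjusted p = 0.0915, adjusted 0.470). After median-ratio scaling Ampd3 was higher in all Het hearts than in any WT heart, 1 of 9 members, where 5.52% of all genes were. Erythroid markers, summed above, were highest in Het 1 and lowest in Het 3. In FPKM, Ampd3 was lowest in Het 1 and highest in Het 3. Relative to the median gene of each heart, it stood at 0.13, 0.12 and 0.36 in Het 1, 2 and 3. The part of red cells in the Ampd3 values was not tested.

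Mb (ENSMUSG00000018893, chromosome 15, 77015487 to 77050670, minus strand) had 5034, 5133 and 5313 FPKM in WT and 2456, 4678 and 4603 FPKM in Het. Every Het heart was below every WT heart, with Het 2 and Het 3 close together at 90.7 and 89.2% of the WT mean. Mb had a log2 fold change of -0.46 (SE 0.307, 95% interval -1.19 to 0.28; limma adjusted p = 0.753). Without Het 1 it was -0.15 (SE 0.0739; limma unadjusted p = 0.0792, adjusted 0.451).

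Members without overlap between the groups were thus Ckm and Mb, 2 of 9 lower in Het where 15.6% of all genes were, and 0 of 9 higher where 1.83% were. Without Het 1 they were Ckm, Ckb and Mb lower (3 of 9, against 21.8%) and Ampd3 higher (1 of 9, against 10.9%). After median-ratio scaling Mb remained lower in every Het heart, 1 of 9 against 7.34% of all genes.

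Ratios between members within a heart do not depend on how libraries are scaled. Ckmt2 relative to Ckm, the mitochondrial against the cytosolic enzyme, was 1.497, 1.66 and 1.57 in WT and 1.74, 1.71 and 1.71 in Het. All 3 Het hearts, Het 1 included, were above all WT hearts, and they lay closer together than the WT hearts did. The mean log2 ratio was 0.13 higher in Het, which an exact two-sided permutation test over samples gave p = 0.1, the smallest p that 3 hearts against 3 allow, and 0.12 higher without Het 1.

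Ckb relative to Ckm was 0.0184, 0.0206 and 0.0160 in WT and 0.0423, 0.0138 and 0.0150 in Het. Het 1 was above and Het 2 and Het 3 were below all WT hearts, so the mean log2 difference of 0.18 (exact two-sided permutation p = 1) turned to -0.35 without Het 1. As shares of summed creatine kinase FPKM, Ckb made up 0.617 to 0.767% in WT, and 1.53, 0.504 and 0.548% in Het 1, 2 and 3. Ckmt2 made up 59.5 to 61.9% in WT and 62.5 to 62.8% in Het.

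**Figure D3:**
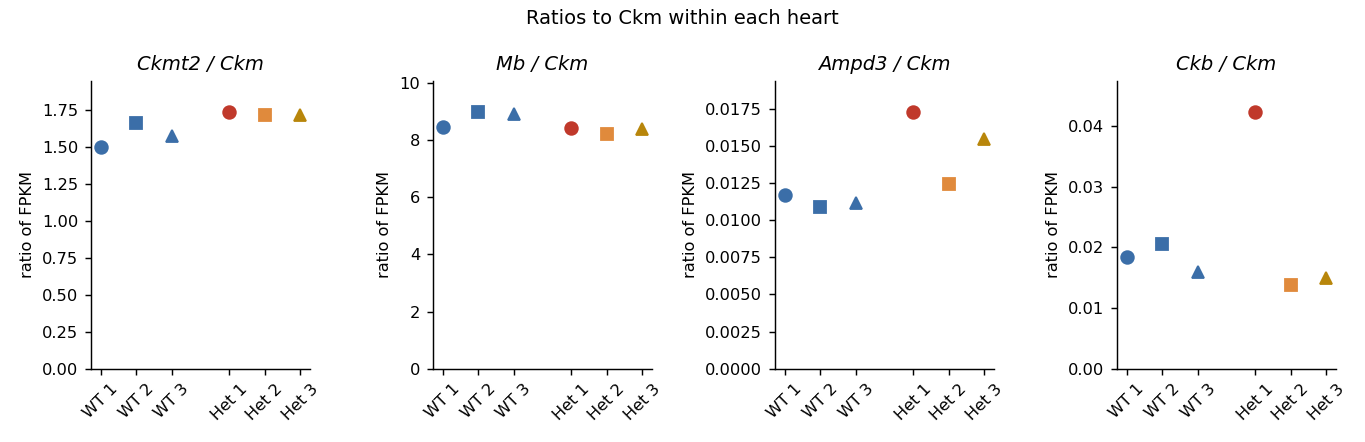
FPKM of Ckmt2, Mb, Ampd3 and Ckb divided by FPKM of Ckm in the same heart (y axes, linear and from 0), by heart (x axis). The Het hearts lie above the WT hearts for Ckmt2 and Ampd3 and below them for Mb, and for Ckb Het 1 lies above and Het 2 and Het 3 below.

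Other ratios to Ckm were not tested. Mb relative to Ckm was 8.46, 8.99 and 8.92 in WT and 8.42, 8.21 and 8.39 in Het, a mean log2 difference of -0.08 with no overlap. Ampd3 relative to Ckm was 0.0109 to 0.0117 in WT and 0.0173, 0.0125 and 0.0155 in Het, 0.41 higher on the log2 scale with no overlap. The ratios of Slc6a8, Ak1, Ak3 and Ak4 to Ckm overlapped between the groups. In Het 1, Ak1 was 0.83 and Ak4 2.10 lower relative to Ckm than in WT on the log2 scale (log2 differences -0.83 and -2.10). Of the summed FPKM of Ak1, Ak3 and Ak4, Ak1 made up 78.1 to 79.4% in WT and 75.1, 77.0 and 76.15% in Het, Ak3 made up 16.7 to 18.8% in WT and 23.5, 18.4 and 19.7% in Het, and Ak4 made up 3.10 to 3.91% in WT and 1.41, 4.56 and 4.16% in Het.

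The low values of Het 1 also varied with base composition. GC content was known for 10023 of 11096 tested genes (90.3%). By 5 equal groups of genes, from lowest to highest GC content, the Het 1 median log2 difference was -0.55, -0.57, -0.52, -0.41 and -0.21. In the other hearts it was -0.04 to 0.03 in every group. Ckb, at 60.0% GC, and Slc6a8, at 56.8%, are in the highest group, and Ak3, at 47.7%, has the lowest GC content of the members. Slc6a8 and Ckb share a group and stood at 47.4 and 115% of their WT means in Het 1. Transcript length was also looked at in Het 2 and Het 3. The shortest of 5 equal groups by length, which holds Mb, Ckmt2 and Ckb, had median log2 differences of -0.095 and -0.177. The group of Ckm and Ak3 had -0.018 and -0.027. In these hearts Mb stood at -0.141 and -0.164, Ckb at -0.405 and -0.346, and Ckmt2 at 0.078 and 0.024. Whether GC content or transcript length had a part in the members' values was not tested.

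**Figure D4:**
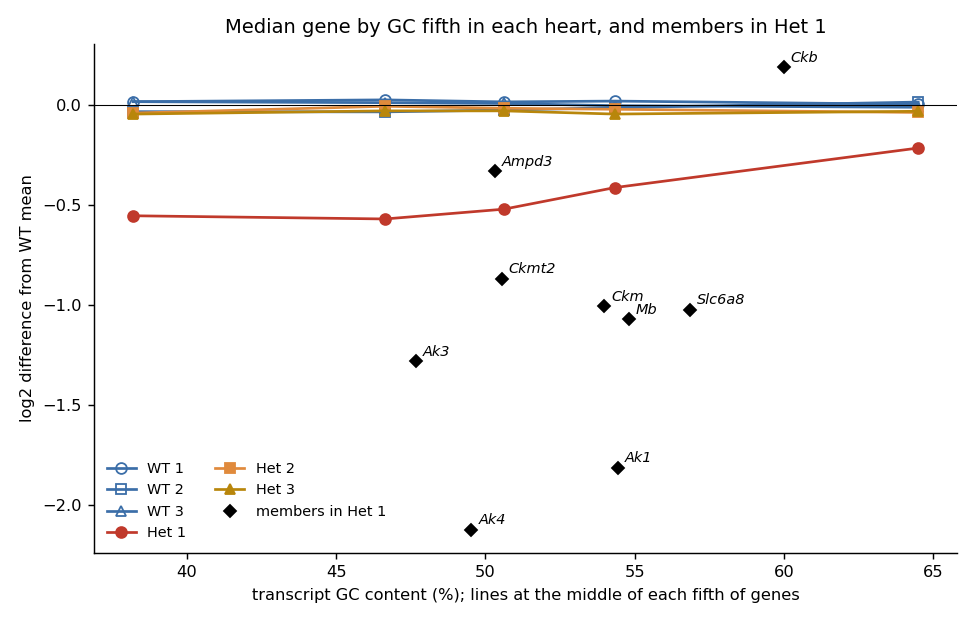
Median log2 difference from the WT mean (y axis) over genes in 5 equal groups by transcript GC content (x axis, percent, drawn at the middle of each group), for each heart, with the 9 members in Het 1 as diamonds. The Het 1 line runs through -0.55, -0.57, -0.52, -0.41 and -0.21 from the lowest to the highest group. The other hearts stay near 0, and all members except Ckb and Ampd3 lie below the Het 1 line.

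Genes around the shuttle were described from 8 lists of creatine handling, phosphotransfer, AMP removal, AMP sensing, mitochondrial exchange and oxygen binding, with 49 listed genes, 46 of them tested and 37 of those not members. Of the 37, 0 had an adjusted p under 0.05 in limma, 1 was lower and 1 higher at an unadjusted p under 0.05, where 3.08 and 0.802% of all genes were. Without Het 1, 6 of 37 had an unadjusted p under 0.05 in either direction, where 9.39% of all genes were lower and 2.96% higher. A negative log2 fold change was found for 32 of 37 with a median of -0.26 (-0.11 without Het 1), where that of all tested genes was -0.18 (-0.04). Het 1 was the lowest heart for 28 of 37. Between the groups, 10 of 37 were lower in Het with no overlap (15.6% of all genes) and 1 was higher (1.83%).

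Mitochondrial exchange, the step that hands ATP to Ckmt2, held the most negative median of the 8 lists. All 6 genes tested had a negative log2 fold change, with a median of -0.66 (-0.23 without Het 1), and 4 of 6 were lower in every Het heart with no overlap, where 15.6% of all genes were. Slc25a4, the heart form of the ADP/ATP carrier, had 1359, 1402 and 1380 FPKM in WT and 754, 1274 and 1155 FPKM in Het (log2 fold change -0.41, SE 0.276). Slc25a5, a second ADP/ATP carrier, had 134, 117 and 121 FPKM in WT and 36.6, 86.4 and 95.2 FPKM in Het. Its log2 fold change was -0.87 (SE 0.397; limma unadjusted p = 0.0666, adjusted 0.753), and -0.44 (SE 0.103; unadjusted p = 0.00389, adjusted 0.242) without Het 1. The outer membrane channels Vdac2 and Vdac3 averaged 68.6 and 68.9% of WT in Het, and 83.0 and 82.7% without Het 1. Vdac1, a further channel of the same list named after its values were seen, averaged 101.6% and Ckmt2 averaged 103.6% of WT without Het 1.

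In the list of AMP removal and purine salvage (15 tested, 10 negative, median -0.16) were the 2 genes with an unadjusted p under 0.05. Hprt, the salvage enzyme for hypoxanthine and guanine, had 33.2, 33.3 and 33.9 FPKM in WT and 17.9, 26.5 and 24.4 FPKM in Het (log2 fold change -0.55, SE 0.223; limma unadjusted p = 0.0458, adjusted 0.753). Xdh, which oxidizes purines to uric acid, had 18.7, 21.4 and 15.3 FPKM in WT and 24.9, 34.8 and 26.9 FPKM in Het (log2 fold change 0.61, SE 0.234; limma unadjusted p = 0.0353, adjusted 0.753). Every Het heart lay outside the WT range for both genes, and without Het 1 their adjusted p were 0.242 and 0.252. Pnp, which splits purine nucleosides, averaged 77.0% of WT in Het with no overlap (82.1% without Het 1). Adsl, an enzyme of the purine nucleotide cycle, averaged 69.4% with overlap (88.3% without Het 1).

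In the adenylate kinase family, the 5 genes described, members included, each had a negative log2 fold change, with a median of -0.46 (-0.11 without Het 1). Of those outside the members, Ak6, the nuclear enzyme, had 13.0, 14.1 and 13.2 FPKM in WT and 5.92, 12.6 and 11.3 FPKM in Het, with no overlap. Cmpk1, which phosphorylates UMP and CMP, averaged 84.8% of WT in Het, also with no overlap (91.6% without Het 1). Creatine synthesis was low: Gamt, its last enzyme, had 1.66 to 1.99 FPKM in WT and 1.77, 1.81 and 0.754 FPKM in Het, and Gatm, its first, was below the filter.

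With all hearts, medians near that of all genes were found in 2 further lists. For 4 nucleoside diphosphate kinases, which spread phosphate from ATP to other nucleotides, the median was -0.21 (-0.145 without Het 1). Nme2, the most abundant, averaged 89.2% of WT, Nme1 83.3%, Nme3 73.5% and Nme6 81.8%. Without Het 1, Nme2 averaged 82.9%, Nme1 89.5%, Nme3 95.2% and Nme6 85.8%. For 9 genes of AMPK, the sensor of AMP, the median was -0.19 (-0.03 without Het 1). Prkag1 averaged 73.2%, Prkag2 77.0%, Prkaa1 86.7% and Cab39, a partner of the upstream kinase, 76.0% of WT. Without Het 1 they averaged 84.8, 89.4, 96.1 and 98.2%. Other genes of the list, named after their values were seen, went the other way. Without Het 1, Prkab2 averaged 132.0% of WT (limma unadjusted p = 0.0125, adjusted 0.297), Prkaa2 116.9% and Prkab1 101.5%. Strada averaged 116.4% with all hearts and 95.1% without Het 1. Of the 2 globins tested, Cygb, which is not a member, had 19.8, 21.7 and 17.0 FPKM in WT and 13.0, 18.2 and 16.7 FPKM in Het. With all hearts, each gene named in this paragraph had a limma adjusted p of 0.753 or more.

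**Figure D5:**
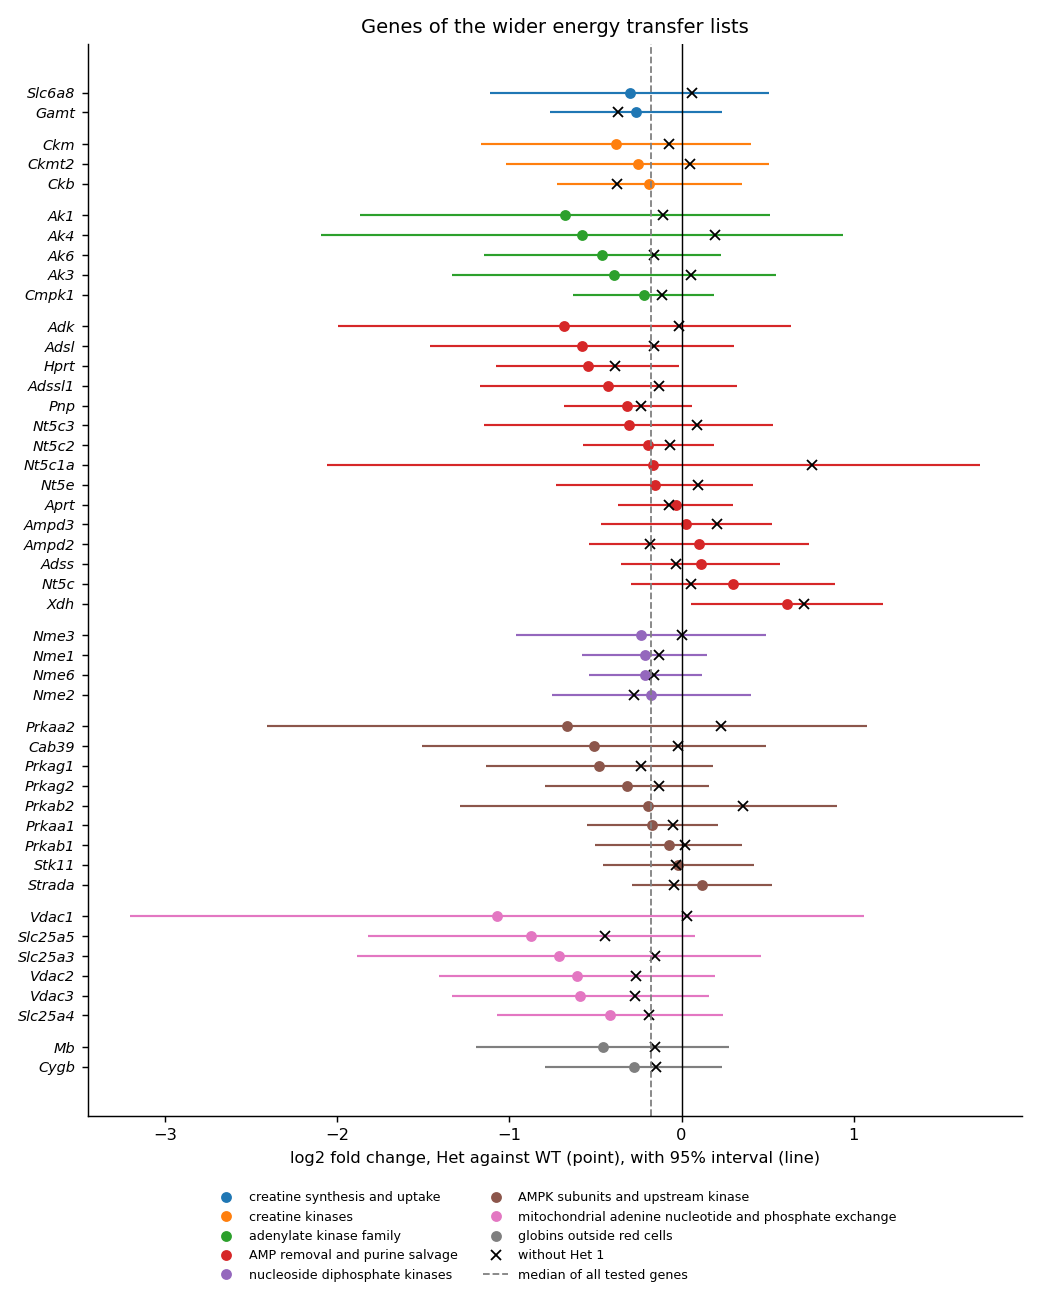
Log2 fold change of Het against WT on the log2(FPKM + 1) scale (x axis; points, with 95% intervals as lines) for the 46 tested genes of the 8 lists (y axis, colored by list), with the value without Het 1 as a cross and the median of all tested genes as a dashed line. Most points lie left of 0 with intervals that cross it, Hprt and Xdh are the exceptions, and most crosses lie nearer to 0 than the points.

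The genes most like each member were sought among 2552 named genes that averaged 10 FPKM or more, by the root mean square difference of log2 differences from the WT mean over the 6 hearts. For Ckm they were Kidins220 (0.0178) and Timm44 (0.0255), and for Ckmt2 Suclg1 (0.0383) and Msrb2 (0.0413). For Slc6a8 they were Abcb8 (0.0156) and Itga7 (0.0228), for Mb Tmem9b (0.0304) and Rpn2 (0.0316), and for Ak3 Ktn1 (0.0302) and Twsg1 (0.0319). For Ak1 they were Stard7 (0.0367) and Tmed2b (0.0383), for Ak4 Mfn2 (0.0480) and Fhod3 (0.0616), and for Ampd3 Tns1 (0.0504) and Rilpl1 (0.0576). Ckb had the most distant nearest genes, Pank4 (0.0739) and Hnrnph1 (0.0742). No member was among another member's 2 nearest of the 2552 genes. Ak4 and Ampd3, which averaged below 10 FPKM, were not among the candidates.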

How the data were processed

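Poly(A) RNA of 3 WT and 3 Het hearts was sequenced as libraries with a dUTP-marked second strand, per the labels' protocols. Per the submitters' processing notes, reads were handled on build mm10, and the tools named, with no roles, are StringTie 1.3.4d, HISAT2 2.0.4, cutadapt 1.9, DESeq2 and edgeR. The deposited table gives FPKM for 6 libraries, a unit inferred from the values and from StringTie being named. Beside the FPKM stand the authors' fold change as a ratio, its log2, their p-value and q-value, and the −log10 of the p-value, per the file headers. The table holds no read counts, so depth is unknown and the error given is the spread between mice. Genes absent from it are not analysed here.

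The 11096 of 14956 genes that averaged 1 FPKM or more were tested on log2(FPKM + 1), which understates changes of low genes, with limma 3.58.1 in R 4.3.3 (lmFit, eBayes with trend and robust variance), Benjamini-Hochberg adjustment and a threshold of 0.05. The procedure was tested on simulated data with the same spread in every heart, set from the WT hearts. The simulation held no heart like Het 1, so that case was not covered. Ratios of Ckb and Ckmt2 to Ckm were tested by exact two-sided permutation over samples with scipy 1.17.1. Alternatives were a pseudocount of 0.1, no filter and a minimum mean of 5 FPKM, median-ratio scaling, scaling without mitochondrial genes, quantile normalization, library weights, eBayes without trend and robust variance, the replicate number as a block, and leaving out each heart. The same settings were applied to Otub1 and to the wider lists after the data had been seen.

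The members and all lists were chosen with earlier results of these data known. An item of the wider lists is not reported here. Named genes were the 9 members, Otub1, up to 4 further genes of each wider list with the smallest unadjusted p, and the 2 genes nearest to each member, and a marker where a result turned on it. Gene coordinates, GC content and transcript length are from GENCODE M21 (GRCm38), promoters from RefSeq. Figures were drawn with matplotlib 3.10.9.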

Additional observations from a re-analysis of the deposited data

How the results depend on the processing

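Across 15 alternative settings, 0 of 9 members and 0 genes of the wider lists were called in each. The log2 fold changes of Ckm, Ak1 and Mb stayed negative in all 15. Those of Ckmt2, Slc6a8, Ak3 and Ak4 turned positive with library weights (0.046, 0.024, 0.022 and 0.115), which gave Het 1 a weight of 0.0486 against 1.51 to 2.55 for the other hearts, and without Het 1. Leaving out 1 heart at a time moved Ckmt2 between -0.422 and 0.051, Slc6a8 between -0.495 and 0.058, Ak3 between -0.632 and 0.052 and Ak4 between -0.999 and 0.193, each highest without Het 1. That of Ckb turned to 0.019 under median-ratio scaling and to 0.017 under quantile normalization. Ampd3, at 0.03 with all hearts, turned to -0.01 without WT 2, -0.01 without Het 2 and -0.12 without Het 3. The log2 ratio of Ckb to Ckm ranged from -0.345 (without Het 1) to 0.466 (without Het 2) when 1 heart was left out. That of Ckmt2 to Ckm kept its direction in every setting run. As its groups do not overlap, none of these settings could have turned it, so this adds no support.

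Over all genes, 2 were called as reported, 22 with library weights, and 1 under median-ratio scaling, quantile normalization and the replicate block. Leaving out 1 heart gave 1 to 38 (8 without Het 1, 25 without Het 2 and 38 without Het 3). The cause was not tested. Otub1 had an adjusted p of 0.00385 with library weights and 0.0131 without Het 1, against 0.376 with all hearts. Equal replicate numbers did not pair the hearts (correlation of same-numbered deviations -0.20, -0.44 and 0.21), and the replicate block called 0 members.

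The width of the members' intervals rested largely on Het 1, without which the SE of Ckm was 0.0818 against 0.328 and that of Ckmt2 0.0812 against 0.320. Absolute read depth is unknown, and no untreated heart allows the effect of doxorubicin to be separated.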

Other observations

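The following genes of the wider lists were chosen after their values were seen, because Het 1 was far below the other hearts in each. Vdac1, the main channel of the outer mitochondrial membrane, had 245, 196 and 246 FPKM in WT 1, 2 and 3 and 22.7, 246 and 219 FPKM in Het 1, 2 and 3. Prkaa2, the AMPK catalytic subunit most abundant in muscle, had 14.2, 9.74 and 13.8 FPKM in WT and 1.46, 14.7 and 14.8 FPKM in Het. Adk, which phosphorylates adenosine to AMP, had 12.4, 10.1 and 12.3 FPKM in WT and 2.09, 11.7 and 11.2 FPKM in Het. Nt5c1a, a cytosolic nucleotidase that turns AMP into adenosine, had 5.05, 1.67 and 4.82 FPKM in WT and 0.130, 6.17 and 7.26 FPKM in Het. In all 4 genes WT 2 was the lowest WT heart, and the same held among the members for Ckm, Slc6a8, Ak1, Ak3, Ak4 and Ampd3. Ckb and Ckmt2 were highest in WT 2 among the WT hearts. The share of all tested genes that were lowest in WT 2 among the WT hearts was not counted. Deviations in WT 2 and Het 1 had a correlation of 0.507, so the order is not shown to be particular to these genes.

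Markers of other heart cells did not share 1 order of hearts. Endothelial markers (8 of 8 listed) summed to 206, 253 and 217 FPKM in WT and to 279, 187 and 243 FPKM in Het. Fibroblast markers (6 of 6) summed to 116, 143 and 122 FPKM in WT and to 78.6, 110 and 119 FPKM in Het. Macrophage markers (7 of 7) summed to 118, 131 and 118 FPKM in WT and to 130, 141 and 237 FPKM in Het, where the Het 3 sum rested on Lyz2, at 168 FPKM against 44.6 to 58.9 FPKM in the other hearts. Adgre1, Csf1r and Mrc1 were also highest in Het 3, at 2.90, 7.12 and 4.58 FPKM. C1qa and C1qb, by contrast, were higher in Het 1 and Het 2 than in Het 3, and Cd68 was highest in Het 2. Of 8 neural markers 3 were listed, with sums of 1.53 to 2.58 FPKM, and of 6 fat cell markers 1 was listed, Cidea, at 8.19 to 18.1 FPKM.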
